A study of Mus musculus with 8 samples.

Results

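The genes described here are 10 enzymes and helper proteins of de novo fatty acid synthesis, measured in white adipose tissue of mice that overexpress the active part of Notch1. They were chosen by name, as Fasn, Acaca, Acacb, Acly, Scd1, Scd2, Elovl6, Me1, Thrsp and Acss2, and found through the RefSeq accession of each array probe. All 10 were measured, with 17 probes among 55681 on the array that are not controls, and they are 10 of 25141 gene names tested. The Ad/NICD group held 4 samples from mice carrying the transgenic Notch1 intracellular domain, and the WT group held 4 wild-type samples. All mice were 5 weeks old, ate regular chow and had a mixed background of 129 × C57BL/6. What drives the transgene, which fat depot was taken and the sex of the mice are not stated in the labels used here. The labels call the samples biological replicates without naming the animals, so p-values measure the spread between these samples.

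De novo synthesis builds fatty acids from carbohydrate. Citrate leaves the mitochondrion and is cleaved to acetyl-CoA, acetyl-CoA is carboxylated to malonyl-CoA, and fatty acid synthase joins these units into palmitate with electrons from NADPH. Elongases and desaturases then turn palmitate into longer and unsaturated fatty acids. In fat the pathway is switched on by insulin and feeding through the transcription factors SREBP1c and ChREBP, and it is also strongly active in brown fat.

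RNA was labelled in 2 colours on 4 arrays, and each array carried 1 Ad/NICD and 1 WT sample with the same replicate number. In the authors' value table the Ad/NICD columns hold the red channel and the WT columns the green channel, and that direction is used here. The sample tags give the dyes the other way round, and if they were right each sign would be turned and the genotype named beside each level exchanged. No dye was swapped, so dye and genotype cannot be told apart. With the direction used, Heyl, a known target of Notch signalling, was higher in Ad/NICD on 4 of 4 arrays, with a mean log2 ratio of 2.87 ± 0.17 (SE, n = 4, limma adjusted p = 0.0399). Each channel had 55.6% to 65.9% of its spots above background. The 17 adipocyte markers listed, Adipoq and Plin1 among them, all passed the filter on dim probes. Xist, transcribed from the inactive X of females, had a linear signal of 58.4 in Ad/NICD replicate 4 and 69.4 in WT replicate 4, against 1134 to 1399 in the other Ad/NICD samples and 1167 to 1234 in the other WT samples. The other sex-linked genes listed, Ddx3y, Kdm5d, Eif2s3y and Uty, were not among the gene names kept. Whether the mice of replicate 4 differed in sex from the others was not tested. All levels below are log2 signals per channel, and differences are log2 ratios of Ad/NICD over WT.

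No synthesis gene passed the test of Ad/NICD against WT. In limma's fit over all gene names, 0 of 10 had an adjusted p under 0.05, where 0.0477% of all gene names did (0.0199% lower and 0.0278% higher in Ad/NICD). The lowest adjusted p among them was 0.254. At an unadjusted p under 0.05 there was 1, Scd2, where 15.2% of all gene names lay under that limit. The mean ratio was below 0 for 9 of 10 genes, beside 51.6% of all gene names, and the median over the 10 was -0.57, beside -0.0059 over all gene names. In 0 of 10 were the levels of the 4 Ad/NICD samples all on one side of the 4 WT samples, a separation found for 9.78% of all gene names. Ratios below 0 on all 4 arrays were found for 0 of 10, beside 13.3% of all gene names, and ratios above 0 on all 4 for 1 of 10, Scd2, beside 11.2%. A mean ratio below -1 was found for 1 of 10, Elovl6, beside 0.644% of all gene names.

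The direction differed from array to array. On the array of replicate 1 the median ratio of the 10 genes was 0.44, and 9 of 10 were above 0. On the array of replicate 2 it was -1.99, with 9 of 10 below 0. Replicates 3 and 4 had medians of -0.16 and -0.34, with 6 of 10 below 0 on each. Ratios below -1 were found for 8 of 10 genes on the array of replicate 2, beside 2.61% of all gene names on that array, and for 0 of 10 on each of the other 3 arrays.

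**Figure D1:**
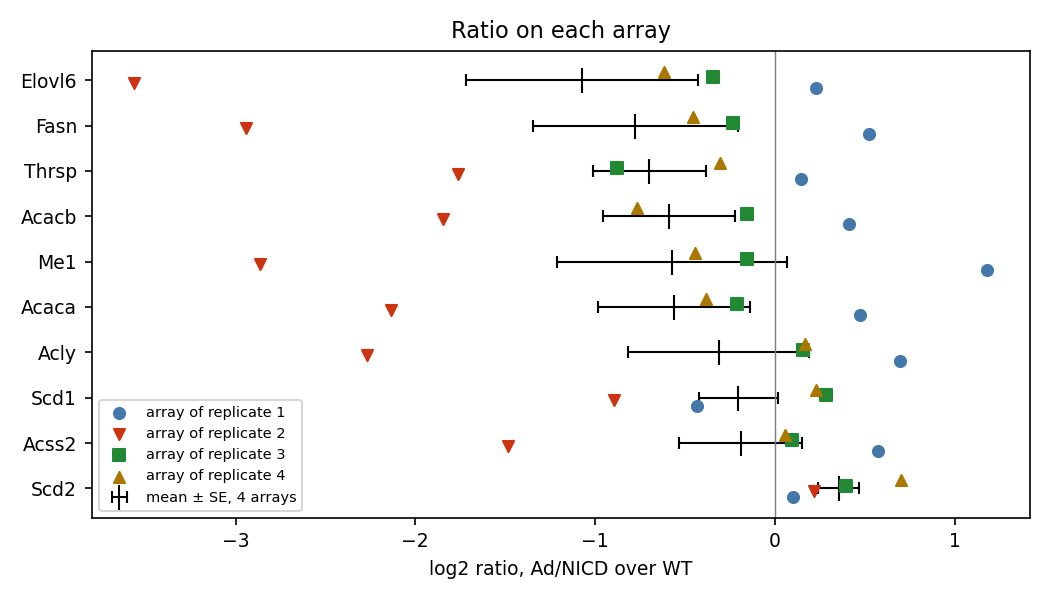
Log2 ratio of Ad/NICD over WT on each of the 4 arrays (coloured symbols) for each gene, with the mean and its standard error from limma in black. The array of replicate 2 lies at -3.56 for Elovl6 and below -1 for 8 of the 10 genes, while the array of replicate 1 lies above 0 for 9 of them.

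Without the array of replicate 2, the median over the 10 genes was -0.0058, and 5 of 10 were below 0. Without replicate 1, 3 or 4 the median was -0.91, -0.66 or -0.57, with 9 of 10 below 0 each time. Of the summed squared ratios of the 10 genes, 88.0% lay on the array of replicate 2, against 31.2% over all gene names. The negative mean of the group therefore rested on 1 array of 4. With any replicate left out 0 of 10 genes passed, a count that says little about the 10. Of all 25141 gene names 0 passed without replicate 1, 2 or 3, and 43 without replicate 4. Fewer adipocytes in a sample and less RNA per adipocyte cannot be told apart in these bulk samples.

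The large ratio on that array came from both of its samples. In WT replicate 2 the median level of the 10 genes lay 1.20 above each gene's own mean over 8 samples, and in Ad/NICD replicate 2 it lay 0.87 below (-0.87). The other 3 Ad/NICD samples had median deviations of 0.099, -0.41 and 0.17 for replicates 1, 3 and 4, and the other 3 WT samples had -0.33, -0.25 and 0.40. WT replicate 2 was the highest of the 8 samples for 9 of 10 genes, where it was the highest for 20.7% of all gene names. Ad/NICD replicate 2 was the lowest sample for 8 of 10, and the share of all gene names lowest in that sample was not counted. Spread within a genotype was wide for these genes: the median SD over the 10 was 0.54 in Ad/NICD and 0.74 in WT (n = 4 each), against 0.14 in Ad/NICD and 0.13 in WT over all gene names. Without replicate 2 the WT figure was 0.43 for the 10 genes.

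**Figure D2:**
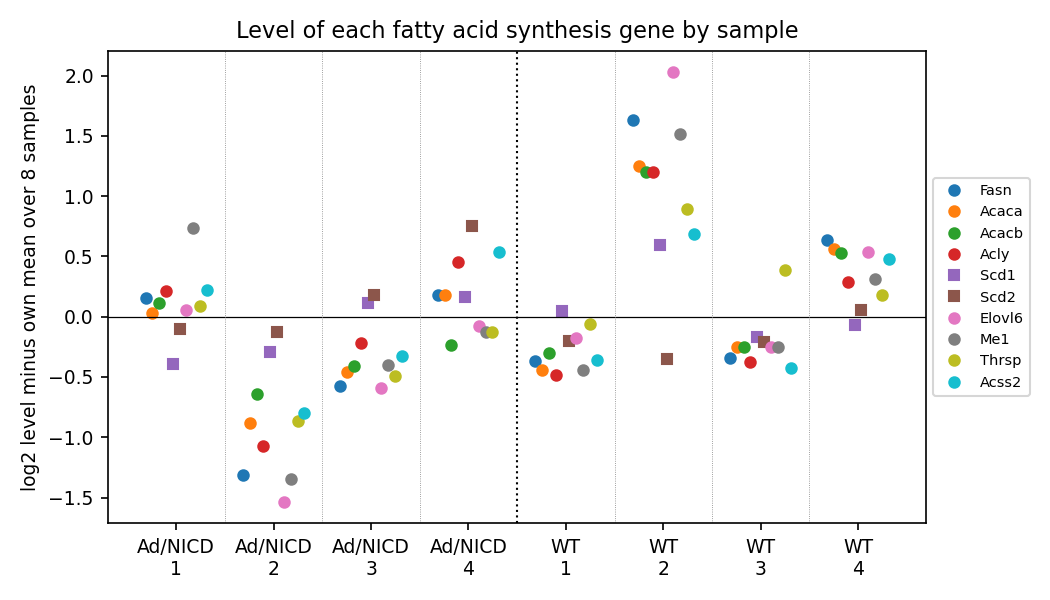
Log2 level of each of the 10 genes in each sample, as the difference from that gene's mean over all 8 samples, with the 4 Ad/NICD samples left and the 4 WT samples right. WT replicate 2 stands highest for every gene except Scd2, and the lowest points lie in Ad/NICD replicate 2, with Elovl6 at -1.53.

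The supply of acetyl-CoA comes first in the pathway. Acly, ATP citrate lyase, splits citrate into acetyl-CoA and oxaloacetate. Its log2 level was 14.06, 12.77, 13.62 and 14.30 in Ad/NICD replicates 1 to 4, against 13.36, 15.04, 13.47 and 14.13 in WT replicates 1 to 4. Ad/NICD was higher on 3 arrays and had a ratio of -2.27 on that of replicate 2, and the mean ratio of -0.31 ± 0.50 (SE, n = 4 arrays) turned to 0.34 without replicate 2. Acss2, which makes acetyl-CoA from acetate in the cytosol, had the same signs, with ratios of 0.58, -1.49, 0.10 and 0.055 and a mean of -0.19 ± 0.34 that was 0.24 without replicate 2. Adjusted p-values were 0.812 for Acly and 0.834 for Acss2 in limma.

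The carboxylases and the synthase followed one another closely over the arrays. Fasn, fatty acid synthase, had levels of 12.69, 11.23, 11.96 and 12.72 in Ad/NICD replicates 1 to 4, against 12.17, 14.17, 12.19 and 13.17 in the WT replicates. The groups overlapped, and WT replicate 2 stood 0.996 above the next WT sample. Fasn had a mean ratio of -0.78 ± 0.57 (SE, n = 4 arrays, 95% confidence interval -2.22 to 0.67, limma adjusted p = 0.577), which was -0.054 without replicate 2. Acaca, the cytosolic acetyl-CoA carboxylase that feeds synthesis, had ratios of 0.47, -2.13, -0.21 and -0.38 and a mean of -0.56 ± 0.42. Acacb, the carboxylase at the mitochondrial surface whose malonyl-CoA restrains fatty acid oxidation, had 0.41, -1.84, -0.16 and -0.76 and a mean of -0.59 ± 0.37. Both carboxylases thus had 1 array above 0 and 3 below, as Fasn had. Without replicate 2 Acaca had -0.039 and Acacb -0.17.

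Elovl6, the elongase that takes palmitate to stearate, had the most negative mean of the 10. Its levels were 12.03, 10.45, 11.39 and 11.91 in Ad/NICD replicates 1 to 4, against 11.80, 14.01, 11.73 and 12.52 in the WT replicates. WT replicate 2 stood 1.49 above the next WT sample, and WT replicates 1 and 3 lay below the highest Ad/NICD sample. The mean ratio of -1.07 ± 0.64 corresponds to a level 2.10-fold lower in Ad/NICD (95% confidence interval of the log2 ratio -2.70 to 0.56, limma adjusted p = 0.493). Without replicate 2 it was -0.24.

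Me1, the cytosolic malic enzyme that supplies NADPH, had the widest range over the arrays, with ratios of 1.18, -2.86, -0.15 and -0.45. Its mean of -0.57 ± 0.64 was 0.19 without replicate 2. Thrsp, the Spot 14 protein that promotes lipogenesis, had levels of 14.92, 13.97, 14.34 and 14.70 in Ad/NICD replicates 1 to 4, against 14.77, 15.73, 15.22 and 15.01 in the WT replicates. Only Ad/NICD replicate 1, at 14.92, lay above a WT sample. Thrsp had the second lowest p of the 10, with a mean ratio of -0.70 ± 0.32 and an adjusted p of 0.381 in limma, and -0.35 without replicate 2. That was the most negative mean of the 10 on the remaining 3 arrays.

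The desaturases stood apart from the other 8 genes. Scd1, stearoyl-CoA desaturase 1, which makes monounsaturated fatty acids, had levels of 14.57, 14.67, 15.08 and 15.12 in Ad/NICD replicates 1 to 4, against 15.01, 15.56, 14.79 and 14.89 in the WT replicates. Its ratios were -0.43, -0.89, 0.29 and 0.23, so that Scd1 was the 1 gene below 0 on the array of replicate 1. Scd2, a second isoform of the desaturase, had levels of 12.28, 12.25, 12.56 and 13.14 in Ad/NICD replicates 1 to 4, against 12.18, 12.03, 12.17 and 12.44 in the WT replicates. It was higher in Ad/NICD on 4 of 4 arrays, with a mean ratio of 0.35 ± 0.11, a 1.28-fold difference (95% confidence interval of the log2 ratio 0.068 to 0.64, limma adjusted p = 0.254). For Scd2, WT replicate 2 was the lowest of the 8 samples, where it was the highest for the other 9 genes. The sign for Scd2 depended on scaling: with each array centred on its median in place of loess, the mean ratio was -0.063. That scaling took the median of all gene names to -0.32, so Scd2 lay above that median under both scalings.

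How closely the 10 genes moved together was described by splitting their summed squared ratios. Differences between arrays that the 10 genes shared held 57.0% of the sum, their common mean 15.4%, differences between genes 10.1% and the remainder 17.6%. For the 8 genes other than Scd1 and Scd2, the shared differences between arrays held 68.3% and the remainder 6.57%. Scd1 and Scd2 were set apart for their values in these same samples, a choice that favours a larger shared part. In the list of glucose entry and glycolysis the shared part was 54.8%, close to that of the 10 genes, and it was 30.9% for the supply of citrate and NADPH, 19.8% for triglyceride synthesis, 12.8% for other elongases and desaturases and 10.2% for the regulators. Without replicate 2 the shared part for the 10 genes was 28.9% and the remainder 44.7%.

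Across the 8 samples, Pearson's r of log2 levels for all 45 pairs of the 10 genes had a median of 0.84 and ran from -0.35 to 0.99. For the 28 pairs that leave out Scd1 and Scd2, the genes that stood apart, it had a median of 0.92 and ran from 0.66 to 0.99. Scd1 and Scd2 were left out for their values in these same samples, so a higher median was built in by that choice. These values are a description without a test, since samples share arrays and normalisation. Without WT replicate 2 the median over the 28 pairs was 0.84, with a range of 0.51 to 0.98. Without both samples of replicate 2, the farthest from the middle of the shared profile, the median over the 28 pairs was 0.70 and the lowest 0.0031. Over all 45 pairs the median was then 0.59 and the lowest -0.76. Scd1 had a median r of 0.59 with the other 9 genes over 8 samples, and -0.24 without both samples of replicate 2. Scd2 had a median r of -0.092 over 8 samples, 0.35 without WT replicate 2 and 0.27 without both samples of replicate 2, so its sign rested on WT replicate 2.

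The 5 genes with more than 1 probe had 12 probes among them, all above background on all 4 arrays in both channels. On the array of replicate 2 the 12 ratios lay between -3.42 and -0.82, and on that of replicate 1 all 12 were above 0. The probes of Me1 had means of -0.57, -0.85 and -0.96, and those of Acacb -0.59 and -0.71. For Acly the brighter probe had a ratio of 0.17 on the array of replicate 4 and the dimmer probe -0.25. The dimmest probe of Acaca, with a mean log2 brightness of 6.62, had a mean ratio of -0.23 against -0.56 for the brightest. Scd1 and Thrsp were the brightest, with median foreground up to 61317 and 68429 intensity units. No saturation flag was among the columns used, and the highest spot of a channel lay between 59656.5 and 194629.

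Promoter windows from RefSeq (GRCm38.p6, 250 bases before to 50 after a gene's start) were matched for 8 of the 10 genes, with 9 windows. The reference used held no window for Scd1 and Scd2, so their absence here was not a choice. The windows are shown because 8 genes shared much of their variation over the samples. Fasn, Thrsp, Acly and Elovl6 are printed as the synthase, the helper protein, the first enzyme and the gene with the most negative mean. Capitals mark CCAAT boxes, the letters bound by NF-Y, and GC boxes (GGGCGG), the letters bound by Sp1, read on both strands.
Fasn, chr11:120824498-120824797, minus strand: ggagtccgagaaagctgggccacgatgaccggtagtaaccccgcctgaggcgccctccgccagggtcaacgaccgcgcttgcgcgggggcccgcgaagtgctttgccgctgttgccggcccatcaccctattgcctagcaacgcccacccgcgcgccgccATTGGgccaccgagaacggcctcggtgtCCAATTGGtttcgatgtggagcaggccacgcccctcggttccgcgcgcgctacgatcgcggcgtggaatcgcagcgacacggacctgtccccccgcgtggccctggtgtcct
Thrsp, chr7:97417501-97417800, minus strand: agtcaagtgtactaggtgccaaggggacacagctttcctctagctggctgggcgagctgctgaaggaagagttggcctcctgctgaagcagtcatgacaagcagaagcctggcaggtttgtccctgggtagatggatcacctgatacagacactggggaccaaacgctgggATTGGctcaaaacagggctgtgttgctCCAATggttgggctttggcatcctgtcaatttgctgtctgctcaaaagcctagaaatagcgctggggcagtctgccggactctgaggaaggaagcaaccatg
Acly, chr11:100527951-100528250, minus strand: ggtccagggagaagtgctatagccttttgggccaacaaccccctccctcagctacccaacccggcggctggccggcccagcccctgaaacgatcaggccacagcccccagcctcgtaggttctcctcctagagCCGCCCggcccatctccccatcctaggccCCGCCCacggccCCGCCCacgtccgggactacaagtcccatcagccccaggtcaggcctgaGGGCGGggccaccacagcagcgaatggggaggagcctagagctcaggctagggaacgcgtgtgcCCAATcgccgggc
Elovl6, chr3:129532136-129532435, plus strand: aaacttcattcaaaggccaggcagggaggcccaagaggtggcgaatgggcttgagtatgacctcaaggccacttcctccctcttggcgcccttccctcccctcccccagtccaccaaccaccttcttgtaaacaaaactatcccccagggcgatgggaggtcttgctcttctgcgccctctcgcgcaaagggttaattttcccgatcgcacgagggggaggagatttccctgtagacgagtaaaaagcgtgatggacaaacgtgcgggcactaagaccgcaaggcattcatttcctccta
The letters CCAAT or their reverse ATTGG were in at least 1 window of 6 of the 8 genes, and in 37.4% of all 32851 windows of that length. Fasn had 3 matches and Thrsp 2, Acly had 1, and none was in the Elovl6 window. GGGCGG or its reverse was in a window of 3 of the 8 genes, Acly, Acss2 and Me1, and in 35.7% of all windows. Acly held 4 matches to it. The E-box CACGTG (in 7.15% of all windows), the sterol regulatory element TCACNCCAC (1.24%) and the RBPJ letters GTGGGAA (6.38%) were in 0 windows of the 8 genes on either strand, which says only that these letters are not in these windows.

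Among the genes that regulate lipogenesis, 0 of 18 passed the test over all gene names. Their median ratio was -0.12, with 14 of 18 below 0. Over all gene names 0.0477% passed and 51.6% were below 0, shares to be read beside the counts of each related list. Srebf1, which encodes SREBP1, had levels of 9.64, 9.09, 8.91 and 9.71 in Ad/NICD replicates 1 to 4, against 9.01, 9.78, 9.08 and 9.65 in the WT replicates, and a mean ratio of -0.044 ± 0.21. Mlxipl, which encodes ChREBP, was lower in Ad/NICD on 4 of 4 arrays, at 12.39, 11.35, 11.47 and 12.07 in Ad/NICD and 12.48, 12.78, 12.48 and 12.38 in WT, with a mean ratio of -0.71 ± 0.24 (limma adjusted p = 0.273). The liver X receptor gene Nr1h2 had -0.39 ± 0.062 and its relative Nr1h3 had -0.31 ± 0.13. Usf2, a factor that binds E-boxes, had 0.39 ± 0.079. Levels did not overlap between the groups for 4 of the 18 regulators, Nr1h2, Nr1h3 and Usf2 among them, a pattern of 9.78% of all gene names. For Nr1h3 the nearest samples of the groups both lay at 12.44.

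Genes that supply citrate and NADPH had a median ratio of -0.41, with 17 of 20 below 0, and 0 of 20 passed. Their array medians were 0.18, -1.07, -0.36 and -0.21, highest for replicate 1 and lowest for replicate 2 as for the synthesis genes, and 70.6% of their summed squared ratios lay on the array of replicate 2. Without replicate 2 the median of the list was -0.13. Pcx, pyruvate carboxylase, which makes oxaloacetate for citrate, had levels of 13.66, 12.96, 12.95 and 13.72 in Ad/NICD, against 14.52, 15.26, 14.82 and 14.81 in WT, and the groups did not overlap. Its mean ratio was -1.53 ± 0.26 (limma adjusted p = 0.130) and -1.27 without replicate 2. Slc25a10, the mitochondrial dicarboxylate carrier, had -0.88 ± 0.14 and was lower on 4 of 4 arrays. Idh1, the cytosolic isocitrate dehydrogenase that yields NADPH, was higher on 4 of 4 arrays at 0.57 ± 0.076. Pcx, Slc25a10 and Idh1 were picked for ratios of 1 sign on 4 arrays, so those signs were fixed by the choice.

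In the list of other elongases and desaturases, 13 of 17 measured genes were below 0 and 0 passed, and the median was -0.15, or -0.051 without replicate 2. Both Hsd17b12 and Hacd2, which act in the elongation cycle after the elongase, were lower on 4 of 4 arrays, at -1.0 ± 0.30 and -0.94 ± 0.21, and Elovl7 had -0.58 ± 0.082. Without replicate 2 Hsd17b12 had -0.62 and Hacd2 -0.75. Hsd17b12, Hacd2 and Elovl7 were also picked for 1 sign on 4 arrays, so those signs were fixed by the choice. For triglyceride synthesis 13 of 16 genes were below 0 and 0 passed, and the median was -0.38, or -0.22 without replicate 2. Gpat3, which adds the first acyl chain to glycerol phosphate, had levels of 10.06, 9.96, 9.41 and 10.14 in Ad/NICD, against 11.94, 12.41, 11.89 and 11.57 in WT. These groups did not overlap, and the mean ratio was -2.06 ± 0.20, a level 4.17-fold lower in Ad/NICD (limma adjusted p = 0.0876). Mogat1 and Dgat1, acyltransferases that make diacylglycerol and triglyceride, had -1.51 ± 0.21 and -1.08 ± 0.22. For glucose entry and glycolysis 4 of 11 measured genes were below 0 and 0 passed, and the median was 0.021, or 0.22 without replicate 2. Slc2a4, the insulin-regulated glucose transporter, had ratios of 0.35, -1.23, -0.63 and 0.048, and Slc2a1 had a mean of 0.26 ± 0.10.

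**Figure D3:**
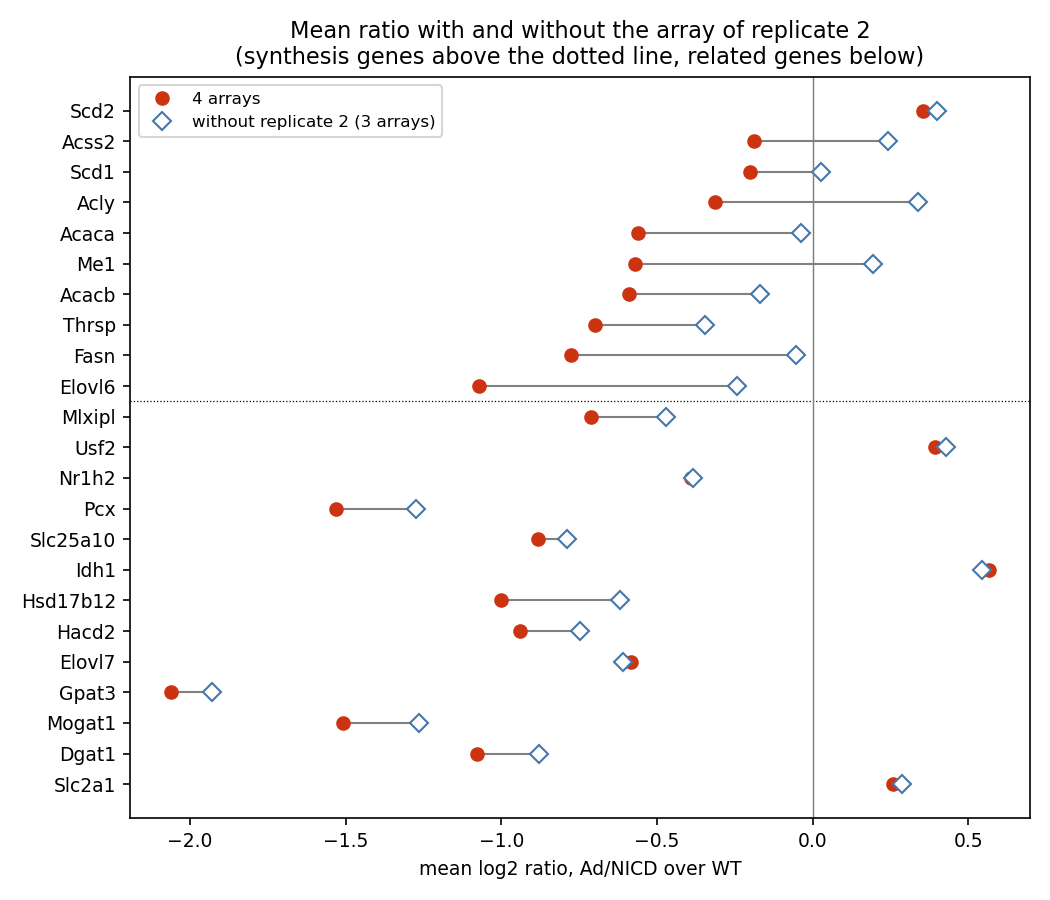
Mean log2 ratio of Ad/NICD over WT over 4 arrays (filled circles) and over the 3 arrays that leave out replicate 2 (open diamonds), for the 10 synthesis genes above the dotted line and for named genes of the related lists below it. Elovl6 moves from -1.07 to -0.24 and Fasn from -0.78 to -0.054. Gpat3 lies at -1.93 and Pcx at -1.27 without replicate 2. The related genes were picked for ratios of 1 sign on all 4 arrays, so their side of 0 without replicate 2 was fixed by that choice. Medians of the whole lists moved from -0.41 to -0.13 for citrate and NADPH supply and from -0.38 to -0.22 for triglyceride synthesis.

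When the channels were fitted separately with a random block for the array, 1.97% of all gene names passed (1.13% lower), and 0 of the 10 synthesis genes did. Gpat3 (adjusted p = 0.00666), Pcx (0.0189), Nr1h2 (0.0259), Idh1 (0.0310), Slc25a10 (0.0318), Mogat1 (0.0328) and Dgat1 (0.0424) passed in that limma fit. Without any replicate block 1.02% of all gene names passed (0.621% lower), again with 0 of the 10. Gpat3 (adjusted p = 0.0134), Pcx (0.0301) and Nr1h2 (0.0481) passed in that limma fit as well. These related genes were picked for large ratios of the same sign on every array. The samples were the same, so their low p-values were favoured by that choice. Mlxipl, Usf2, Elovl7, Hacd2, Hsd17b12 and Slc2a1, picked in the same way, passed in neither fit. The share of each whole related list that passed in these fits is not given here.

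Some markers of brown and beige fat were, like the synthesis genes, high in WT replicate 2. Ucp1, the uncoupling protein of thermogenic fat, had levels of 14.66, 12.49, 12.57 and 13.90 in Ad/NICD replicates 1 to 4, against 12.24, 15.16, 13.03 and 13.44 in the WT replicates. It was highest in WT replicate 2, as were 9 of the 10 synthesis genes, and was higher in Ad/NICD than in WT on the array of replicate 1, as were 9 of the 10. All 13 brown and beige markers were measured, with array medians of 0.66, -1.51, -0.038 and 0.064, and 7 of 13 below 0 in the mean. Their median level was lowest in Ad/NICD replicate 3, where that of the synthesis genes was lowest in Ad/NICD replicate 2, and Ucp1 was lowest in WT replicate 1. Lhx8, a marker named after its values were seen, had a ratio of 0.46 on the array of replicate 2. The summed linear signal of the 13 markers was 55964 to 122847 in Ad/NICD and 40178 to 176473 in WT, with the top value in WT replicate 2. The part of these cells in the ratios of the synthesis genes was not tested.

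Markers of adipocytes were mostly lower in Ad/NICD. Their list had array medians of -0.53, -1.23, -1.20 and -0.15, with 14 of 17 below 0, beside 51.6% of all gene names. Of the 17, 1 was called lower, beside 0.0199% of all gene names. That was Acvr1c, an activin receptor gene named because it is that 1 call. It fell by 1.71 on the log2 scale (a ratio of -1.71, limma adjusted p = 0.0399). The adipocyte list was chosen with earlier results of these data known, so its counts beside those shares are no independent support. Levels did not overlap between the groups for 8 of the 17, beside 9.78% of all gene names. The summed signal of the 17 adipocyte markers was 175489 to 331378 in Ad/NICD and 357902 to 485136 in WT, without overlap. Adipoq, the adiponectin gene, had a mean ratio of -0.95 ± 0.30. The sum of 13 mammary epithelial markers, cells that also make fatty acids, was 2147 to 43390 in Ad/NICD and 1643 to 33217 in WT. It was lowest in the samples of replicate 4, and the milk protein genes Csn2 and Wap did not pass the filter on dim probes. Array medians of the mammary list were -0.75, -1.54, 0.27 and 0.012. Its median level lay 1.40 above each gene's own mean in WT replicate 2, beside 1.45 in Ad/NICD replicate 3 and 1.01 and 1.00 in WT replicates 1 and 3. The sum of 13 skeletal muscle markers was 3519 to 15254 in Ad/NICD and 5538 to 205213 in WT, with the top value in WT replicate 4. It was 19578 in WT replicate 2, against 5585 and 5538 in WT replicates 1 and 3. Array medians of the muscle list were -0.46, -1.74, -0.48 and -3.82. On the array of replicate 2 the median ratio was -0.32 for endothelial, 0.49 for macrophage, 0.40 for lymphocyte and 0.63 for progenitor markers. Medians of the ratio were -0.38 for the mammary list (11 of 13 below 0) and -1.82 for the muscle list (13 of 13), and -0.26 for 10 endothelial, 0.19 for 10 macrophage, -0.018 for 10 lymphocyte and 0.29 for 8 adipose progenitor markers. Without replicate 2 they were -0.11 for the mammary, -1.75 for the muscle, -0.26 for the endothelial, 0.066 for the macrophage, -0.17 for the lymphocyte and 0.17 for the progenitor list. The part of each of these in the ratios of the synthesis genes was not tested.

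**Figure D4:**
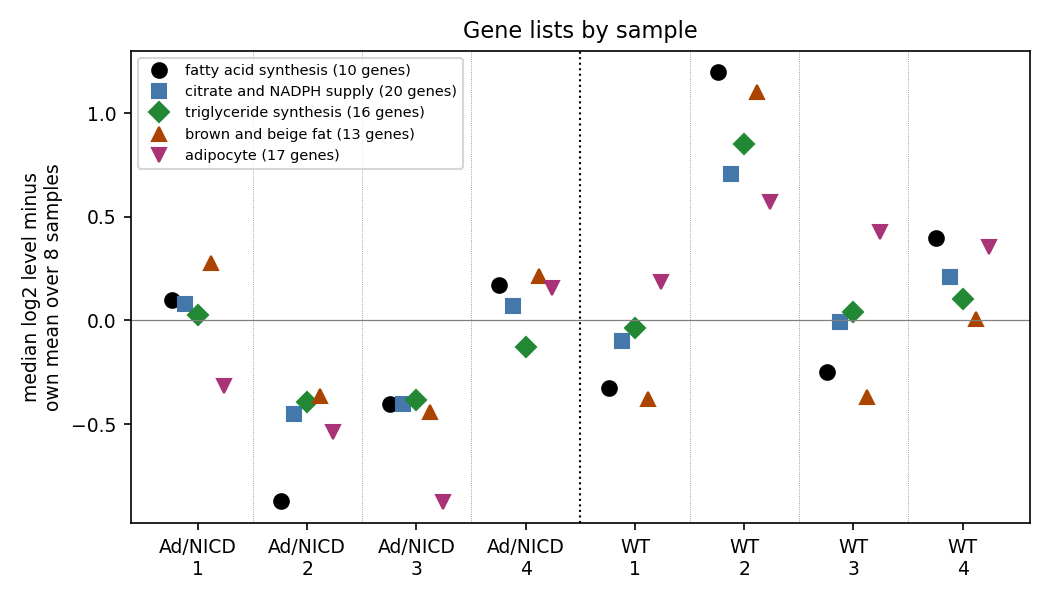
Median log2 level of 5 gene lists in each sample, as the difference from each gene's mean over 8 samples, with Ad/NICD samples left and WT samples right. In WT replicate 2 the synthesis genes stand at 1.20 and the brown and beige markers at 1.11. In Ad/NICD replicate 2 they stand at -0.87 and -0.36.

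Genes whose pattern was most like the mean standardised profile of the 10, by Pearson's r of log2 levels over the 8 samples and with no test, were Tmem79, Gm16381, Pdhb, Pdha1, Mpc1, Hspa9, Impa2 and Higd1a, with r from 0.95 to 0.97. Pdhb and Pdha1 encode subunits of pyruvate dehydrogenase, and Mpc1 a subunit of the mitochondrial pyruvate carrier. Without both samples of replicate 2, r was 0.96 for Pdhb, 0.94 for Pdha1, 0.94 for Mpc1 and 0.97 for Impa2, and the other 4 had 0.78 to 0.92. The samples left were among those used to pick the genes, so these r were partly set by the choice. Likeness by r takes no account of the size of a change. Gm16381 lay between 12.37 and 12.56 in all 8 samples, and Higd1a had a mean ratio of -0.070 ± 0.14. The mean ratio of Pdhb was -0.39 ± 0.33, with 0.48, -1.57, -0.25 and -0.22 on the arrays of replicates 1 to 4. Mpc1 had levels of 14.11, 13.46, 13.61 and 14.25 in Ad/NICD, against 13.63, 15.14, 13.77 and 14.15 in WT. None of the 8 passed in limma, with adjusted p-values from 0.445 to 0.846.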

How the data were processed

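White adipose tissue RNA of 4 Ad/NICD and 4 WT samples was measured on 4 arrays, grouped by the sample titles. The submitters' processing notes name Agilent Feature Extraction 11.5. Its tables, deposited per sample, hold intensity values per spot and channel, and a log10 ratio of red over green processed signal, per the file headers. Tables of same-numbered samples were identical. The authors' own value table is in log2 units. Its columns matched the log2 processed signal of 1 channel minus a constant, with medians from -3.84 to -3.52. No source used here gives the step behind its scaling.

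Median foreground was corrected with normexp (offset 50) and normalised by loess within arrays, with control spots at weight 0 (limma 3.58.1, R 4.3.3). A probe had to be well above background in 1 channel on at least 3 of 4 arrays. The array of replicate 1 lacked that flag. It was rebuilt from the negative controls (6 times their robust SD), a rule that matched the scanner's flag for 98.3% to 100% of spots elsewhere. RefSeq symbols (GRCm38.p6, names only) matched 28026 of 55681 probes. The brightest kept probe stood for a gene name. The 4 log2 ratios were tested against 0 with limma (lmFit, eBayes, Benjamini-Hochberg over 25141 gene names), and SE is the moderated standard error. Sharing an array pairs the samples. Deviations of same-numbered samples from group means correlated at 0.18, 0.17, 0.56 and 0.53. The highest correlation of either sample with a differently numbered sample of the other group was 0.28, 0.14, 0.28 and -0.018. For replicate 1 it was thus above that of the same-numbered samples, and for replicate 2 close to it. Levels are per channel after loess and Aquantile. Precision is limited by the number of arrays. The fit was tested on simulated data.

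The members and lists were chosen with earlier results of these data known. Named are the 10 members, the 3 largest ratios of 1 sign on 4 arrays per related list, Srebf1, Mlxipl, Nr1h3, Slc2a4, Ucp1, Adipoq and Heyl, and the 8 most similar genes.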

Additional observations from a re-analysis of the deposited data

How the results depend on the processing

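The count of 0 of 10 synthesis genes past the threshold held under all 16 alternatives to the limma ratio fit, with the lowest adjusted p of any of the 10 at 0.0927 (median centring in place of loess). The number of all gene names past the threshold was 12 and was not stable: 5 with Feature Extraction's processed signals, 3 with the authors' value table, 0 with median centring, 0 without a filter on dim probes, 0 with eBayes trend and robust settings, 256 on separate channels with no replicate block and 496 with the array as a random replicate block. Leaving out each replicate gave 0 to 43. With all arrays 3828 gene names had an unadjusted p under 0.05 in the limma ratio fit, with 9619 under median centring, 5092 without the filter, 2898 with trend and robust settings and 1993 to 4560 with a replicate left out. The median ratio of the 10 genes was -0.0058 without replicate 2 and -0.91 without replicate 1, and median centring gave -0.89, or -0.57 relative to the median of all gene names. Of 158 values of single genes under alternatives, 153 kept their direction and stayed above the threshold. That count overstates stability. Changes to the filter, trend and robust settings and the fits on separate channels left the ratios of the 10 genes as they were, so their direction could not change. Where 0 of all gene names passed, staying above the threshold says nothing particular to the 10. Without replicate 2 the ratio turned to 0.34 for Acly, 0.027 for Scd1, 0.19 for Me1 and 0.24 for Acss2. Median centring turned Scd2 to -0.063, which lay above the median of -0.32 over all gene names in that setting. Over the replicates left out in turn, the ratio ran from -0.65 to 0.34 for Acly, from -0.37 to 0.027 for Scd1, from -1.15 to 0.19 for Me1 and from -0.44 to 0.24 for Acss2. The cause of the changes in the counts was not tested. Leaving out probes with a median foreground of 50000 or more was chosen after seeing the data. It removed Scd1 and Thrsp and the brightest probe of Acaca, which was then read from its second probe, and the 8 genes left had a median of -0.57. Leaving out saturated probes was not run, because no column used flags saturation.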
